A study of Mus musculus with 48 samples.

Results

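Transcript levels of 9 genes of bile ducts, ductular cells and simple-epithelium keratins were followed in mouse liver: Sox9, Epcam, Cd24a, Ly6d and the keratin genes Krt7, Krt8, Krt18, Krt19 and Krt23. They were taken by gene name from a table of 49315 genes, and 8 of the 9 were among the 15820 genes with enough signal to be tested. Krt7 was the exception, with less than 1 TPM in 47 of 48 libraries. TPM is a share of a library's transcripts, corrected for gene length and scaled to a total of 1000000, so levels of different genes can be compared.

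The livers came from male and female C57BL/6J mice, an inbred strain, fed either low-fat (LFD) or high-fat (HFD) chow. Both diets were combined with vehicle or with weekly doses of 3 dioxin-like compounds, and livers were taken after 12 weeks. Each dose contained 10 ng/kg of the dioxin TCDD, 80 ng/kg of the furan PeCDF and 140 ng/kg of the biphenyl PCB126, called the mixture here. Crossing sex, diet and exposure gave 8 groups of 6 livers, with no altered allele named in the labels. Sources used here do not give the animals' age, the make-up of the diets or the vehicle.

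Keratins form intermediate filaments from pairs of a type I and a type II chain. Hepatocytes carry mainly the pair of keratin 8 (type II) and keratin 18 (type I), while the cholangiocytes that line bile ducts add keratin 7 (type II) and keratin 19 (type I). Keratin 8 and keratin 18 are also the main proteins of Mallory-Denk bodies, the hepatocyte inclusions of steatohepatitis. In a ductular reaction, small bile-duct-like cells expand at the portal tracts of an injured liver, and SOX9, EPCAM, CD24, keratin 19 and keratin 23 are known as its markers. In bulk liver RNA, a change in the number of such cells and a change in the RNA per cell cannot be told apart.

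The type II genes Krt7 and Krt8 and the type I gene Krt18 lie close together on chromosome 15, and the type I genes Krt19 and Krt23 on chromosome 11. In GENCODE M21 on build GRCm38 the protein-coding Krt8 gene spans chr15:101996698-102004482 on the minus strand and Krt18 spans chr15:102028180-102032027 on the plus strand, with Krt7 at chr15:101411043-101430313 (plus). Krt19 is at chr11:100140810-100148665 (minus) and Krt23 at chr11:99477974-99493137 (minus). Ly6d is at chr15:74762056-74763620 (minus), Sox9 at chr11:112782224-112787760 (plus), Epcam at chr17:87635979-87651129 (plus) and Cd24a at chr10:43578284-43584265 (plus). Krt8 overlaps the long noncoding RNA gene Gm36026 and Krt7 the antisense gene Gm671, both on the opposite strand. Neither Gm36026 nor Gm671 was found by name among the 49315 genes with values. Sources used here do not say whether counting used strand, so reads from these overlapping genes may be included in Krt8 and Krt7.

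The upstream sequences of Krt8, Krt18 and Krt23 are shown because Krt8 and Krt18 encode partners of the same filament whose transcripts moved unequally with diet, and the last had the largest keratin change. Each is the 250 bases before the RefSeq transcription start (GRCm38.p6), 5′ to 3′ on the gene's own strand. They lie at chr15:102004343-102004592 (minus strand, Krt8), chr15:102027966-102028215 (plus strand, Krt18) and chr11:99493121-99493370 (minus strand, Krt23). These RefSeq starts lie inside the GENCODE gene, so part of each window is transcribed in the longest GENCODE model. Capitals mark matches to GCGTG, the core of the site bound by the aryl hydrocarbon receptor (AhR), the receptor that dioxin-like compounds bind.
Krt8: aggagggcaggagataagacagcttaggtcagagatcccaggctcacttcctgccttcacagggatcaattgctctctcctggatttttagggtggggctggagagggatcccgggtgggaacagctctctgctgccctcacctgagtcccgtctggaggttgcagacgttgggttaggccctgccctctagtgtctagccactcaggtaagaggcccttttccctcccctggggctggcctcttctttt
Krt18: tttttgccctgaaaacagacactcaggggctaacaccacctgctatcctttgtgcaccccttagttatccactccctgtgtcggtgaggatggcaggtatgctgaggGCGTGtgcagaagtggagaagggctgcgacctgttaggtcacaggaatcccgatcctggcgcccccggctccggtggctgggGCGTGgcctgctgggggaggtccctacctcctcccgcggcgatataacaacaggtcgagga
Krt23: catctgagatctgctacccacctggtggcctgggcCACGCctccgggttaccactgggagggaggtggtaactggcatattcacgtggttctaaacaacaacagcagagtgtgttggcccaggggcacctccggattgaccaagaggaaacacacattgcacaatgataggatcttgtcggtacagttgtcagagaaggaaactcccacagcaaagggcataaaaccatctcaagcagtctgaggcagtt
The Krt18 window held GCGTG at positions -143 and -61 from the start, on the gene's strand. Krt23 held it once, at -215 on the other strand (printed as CACGC), and the Krt8 window did not hold it on either strand. GCGTG occurred on either strand in 28.2% of 32851 mouse promoter windows of the same length. A further 4 motifs were searched on both strands: GGAATG, bound by TEAD factors (in 12.6% of all windows), TGANTCA, bound by AP-1 (6.75%), the GC box GGGCGG (32.7%) and TATAAA (12.4%). None of these was found in the 3 windows printed. Entries were matched for 5 of the 9 genes, the others being Epcam and Krt7, whose windows held the GC box 1 and 4 times. Sox9, Krt19, Ly6d and Cd24a had no entry. A match describes letters in a window and no binding.

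All libraries were dominated by hepatocyte transcripts, with 97304 to 202230 TPM in 15 hepatocyte genes, and held 13180 to 14713 genes at 1 TPM or more. TPM keep no sequencing depth, so the depth behind each value is unknown. Skeletal muscle transcripts stood apart in 5 libraries: the sum of 15 muscle genes was 25036 TPM in HFD mixture male 6, 9456 in LFD vehicle female 3, 1960 in LFD mixture female 3, 797 in LFD vehicle male 4 and 371 in LFD vehicle male 5, against a median of 39.7 in the other 43. Where a member's call changed without them, that value is given beside it. Adrenal cortex transcripts were high in places too. The sum of 6 adrenal genes reached 1641 TPM in an LFD mixture female, where the group median was 4.89. It reached 91.9 in an LFD mixture male, where the group median was 3.72. No alternative left out libraries by their adrenal transcripts. The labels name no batch, and library numbers recur between the diets, so diet and any difference in cohort cannot be told apart, and each p reflects only how these libraries vary.

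Krt8 and Krt18 were the abundant members, and the biliary genes were low. Over all 48 libraries Krt8 ranged from 142 to 727 TPM with a median of 294, and Krt18 from 146 to 492 with a median of 245. Ly6d had the widest range as a fold, 0.429 to 217 TPM with a median of 22.1, and Krt23 ranged from 0.934 to 36.5 with a median of 7.84. Epcam (median 6.16 TPM), Cd24a (4.39), Krt19 (3.64), Sox9 (2.83) and Krt7 (0.385) followed, and the ranges of neighbours in this order overlap. The cholangiocyte channel gene Cftr did not exceed 0.437 TPM in any library, so this defining duct transcript was at or near 0. Of 41 other keratin genes in the table, 37 never reached 1 TPM.

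The diet comparison asks how these genes differ between HFD and LFD livers of the same sex and exposure. Krt8 and Krt23 transcripts were higher on HFD in all 4 such comparisons, Krt18 in 3, and Ly6d in both comparisons of males. Cd24a, Krt19 and Sox9 were also higher in males given the mixture, whereas in vehicle females Sox9 was lower. Tests were made with limma on log2(TPM + 1) in a single model of all 48 libraries, with Benjamini-Hochberg adjustment over all 15820 genes and a threshold of 0.05. In vehicle males 4 of the 8 tested members were higher and 0 lower, where 31.4% of all genes tested were called (25.6% higher, 5.82% lower). The same diet contrast with the mixture in males had 7 higher and 0 lower, with 38.6% of all genes called (31.7% higher, 6.92% lower). In vehicle females 3 were higher and 1 lower, with 28% of all genes called (14.4% higher, 13.5% lower), and in females given the mixture 2 were higher, with 19.2% called (11.5% higher, 7.74% lower). The median log2 change of the 8 members was 0.22, 1.05, 0.33 and 0.37 in that order, beside 0.11, 0.15, -0.0077 and -0.00087 for all genes tested.

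The upward shift of all genes in males depended on how libraries were scaled. With TMM factors, which trim extreme genes before libraries are aligned, the median of all genes in the 2 male comparisons was -0.0084 and -0.0089. The share of calls that were higher moved from 81.5% to 51.7% in vehicle males, from 82.1% to 48.6% in males given the mixture, and in females given the mixture from 59.7% to 50.6%. Relative to the median of all genes, the Krt8 change in vehicle males was 0.93 and that of Krt18 was 0.26.

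Krt8, the type II partner in hepatocytes, about doubled on HFD. In vehicle males it was 207 to 282 TPM (median 255) on LFD and 474 to 592 (median 517) on HFD. With the mixture the lowest, median and highest male values were 188, 227 and 303 TPM on LFD and 429, 638 and 727 on HFD. Neither pair of male groups overlapped. Female values were lower on both diets. In vehicle females they were 142 to 207 TPM (median 185) on LFD and 295 to 383 (median 339.7) on HFD, and with the mixture 154 to 203 (median 177) and 293 to 409.5 (median 331). No Krt8 value of an HFD group reached down to its matched LFD group. The log2 changes were 1.04 ± 0.11 (SE) and 1.35 ± 0.11 in vehicle and mixture males and 0.93 ± 0.11 and 0.89 ± 0.11 in vehicle and mixture females, with limma adjusted p of 4.02e-10, 6.29e-13, 8.74e-09 and 4.14e-08 (n = 6 per group). With TMM scaling they were 0.89, 1.15, 0.92 and 0.87. Krt8-ps, a processed copy of Krt8 that could take some of its reads, did not exceed 4.20 TPM.

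Krt18, the type I partner, changed less. In vehicle males it was 218 to 308 TPM (median 269) on LFD and 292 to 397 (median 327) on HFD, groups that overlap. With the mixture male Krt18 was 200.1 to 275 TPM (median 248) on LFD and 286 to 492 (median 439) on HFD, with no overlap. Female Krt18 was 146 to 202 TPM (median 176) and 188 to 285 (median 213) with vehicle, and 167 to 231 (median 201) and 211 to 268 (median 231) with the mixture. Both female pairs of groups overlapped. The log2 changes were 0.37 ± 0.11 (adjusted p = 0.0109) and 0.77 ± 0.11 (7.36e-07) in vehicle and mixture males, and 0.38 ± 0.11 (0.0106) in vehicle females by limma. In females given the mixture the difference was 0.25 ± 0.11 (limma adjusted p = 0.122), and 0.29 (0.0483) without the 5 libraries with most muscle transcripts, an alternative chosen after seeing the data. The call in vehicle males was lost with TMM scaling (0.21, limma adjusted p = 0.145).

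**Figure D1:**
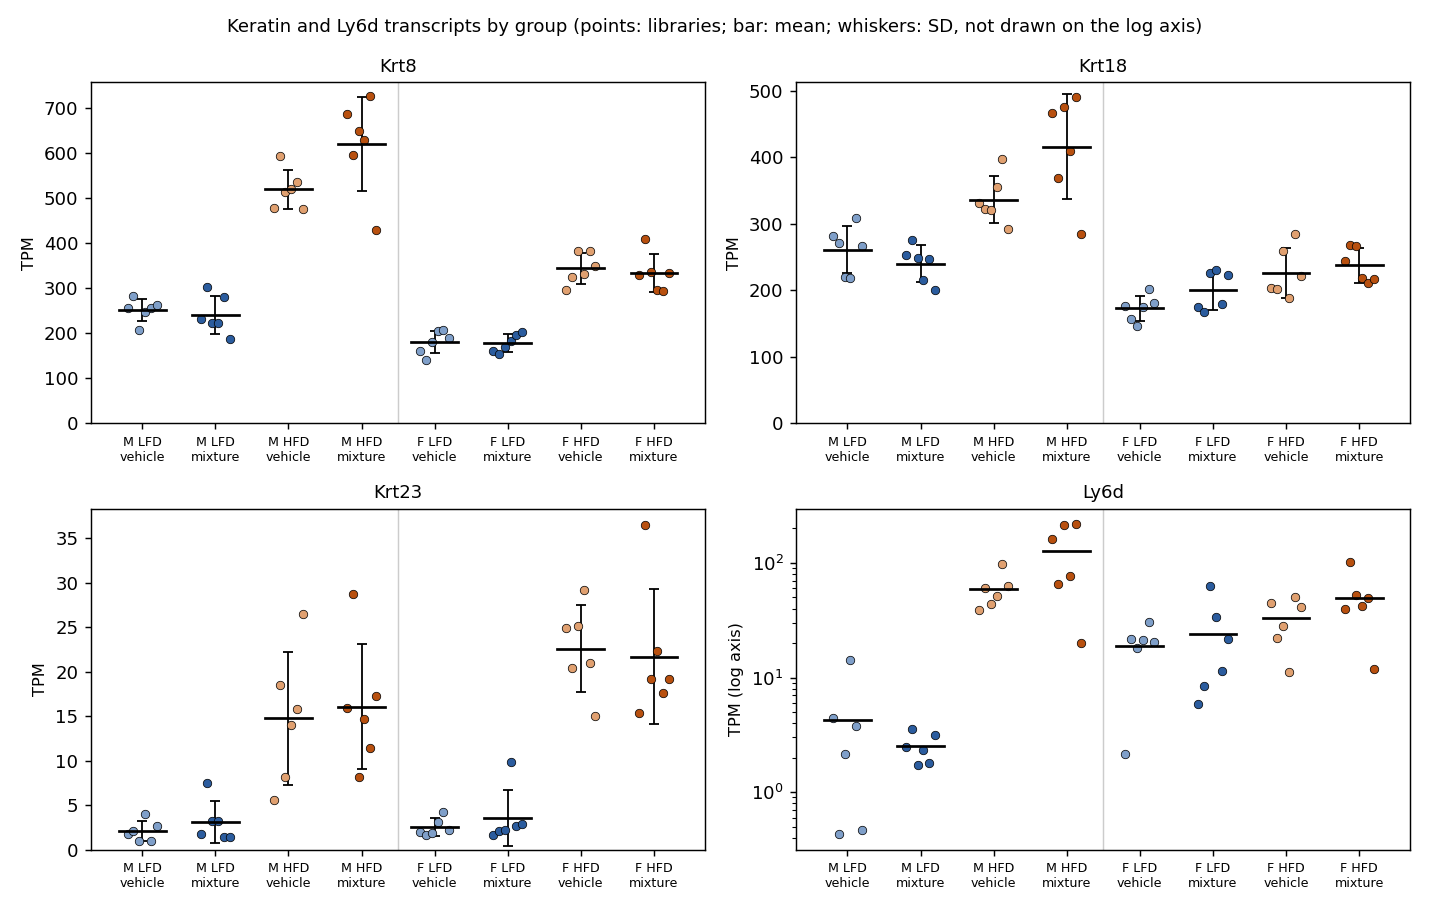
TPM of Krt8, Krt18, Krt23 (linear axes from 0) and Ly6d (log axis) by group, with a point for each of 6 libraries, a bar at the mean and whiskers of SD except on the log axis. Krt8 groups on HFD lie above the matched LFD groups without overlap, and male Ly6d on LFD does not exceed 14.2 TPM in any library.

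The ratio of Krt8 to Krt18 TPM separated the diets in every library. It was 0.752 to 1.23 in the 24 LFD libraries (median 0.940) and 1.25 to 1.83 in the 24 HFD libraries (median 1.48). Group means on LFD were 0.972 ± 0.11 (SD, n = 6) and 1.00 ± 0.10 in vehicle and mixture males and 1.05 ± 0.13 and 0.900 ± 0.12 in vehicle and mixture females. On HFD they were 1.55 ± 0.17 and 1.49 ± 0.083 in males and 1.54 ± 0.15 and 1.40 ± 0.11 in females, vehicle before mixture. A ratio within a library is not altered by scaling of that library. It shows unequal change of the transcripts, and it was examined because both were seen to change, so it carries no test.

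**Figure D2:**
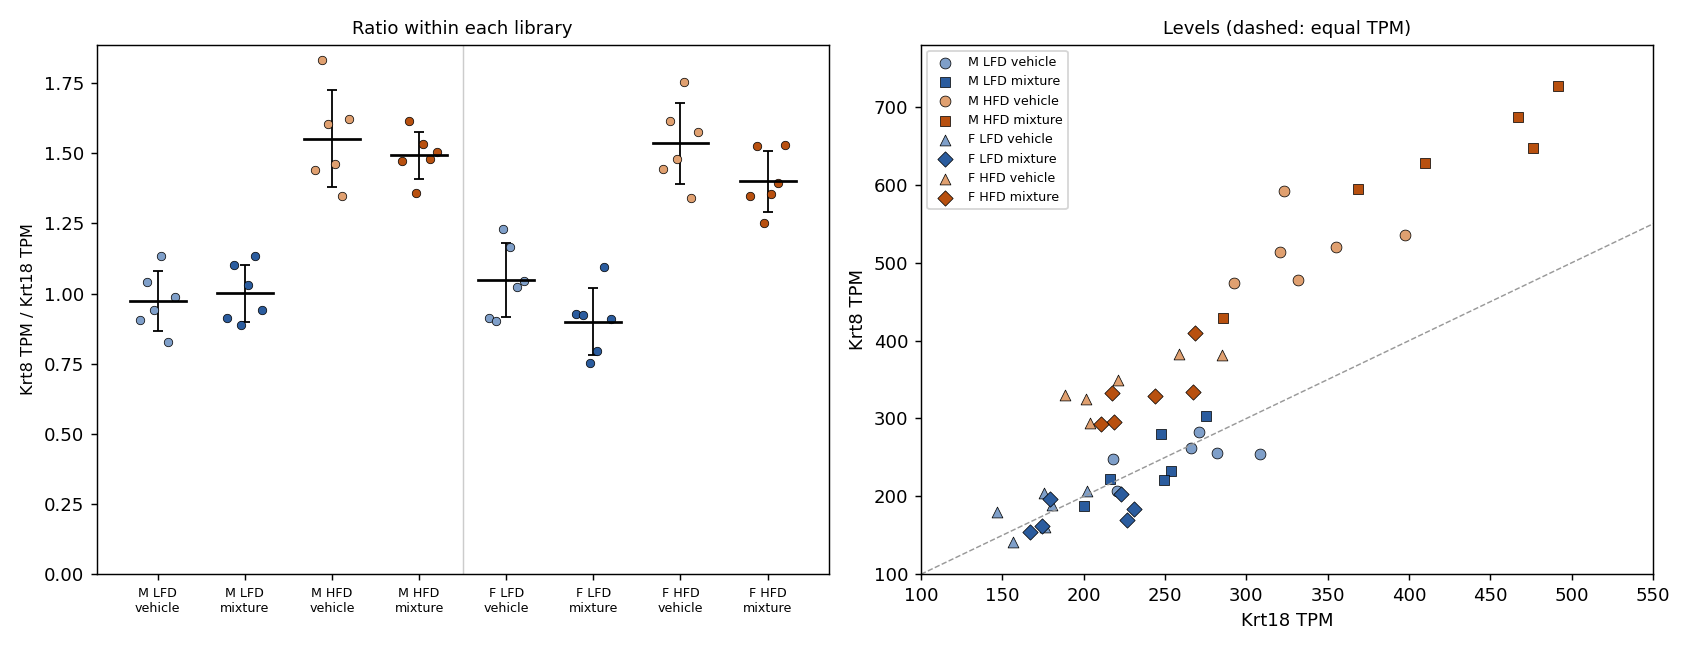
Left, the Krt8 to Krt18 TPM ratio of each library by group (bar, mean; whiskers, SD). Right, Krt8 TPM against Krt18 TPM for all 48 libraries, with a dashed line at equal TPM. Libraries on HFD have ratios of at least 1.25 and those on LFD at most 1.23.

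Krt23, a type I keratin known to be induced in stressed liver and in ductular reactions, had the largest change among the keratin members in each of the 4 diet comparisons. In vehicle males it was 0.934 to 4.02 TPM (median 1.97) on LFD and 5.63 to 26.5 (median 14.96) on HFD. With the mixture male Krt23 was 1.41 to 7.56 (median 2.47) and 8.24 to 28.8 (median 15.3). Every male HFD liver exceeded every LFD liver of its exposure. Female values were 1.71 to 4.26 TPM (median 2.11) and 15.04 to 29.1 (median 22.9) with vehicle, and 1.66 to 9.85 (median 2.46) and 15.4 to 36.5 (median 19.2) with the mixture, again without overlap. Mean TPM was 7.07 and 5.18 times higher on HFD in vehicle and mixture males and 8.93 and 6.07 times higher in females. Without LFD mixture female 4 (9.85 TPM) the last ratio was 9.35. The log2 changes were 2.28 ± 0.32 (SE), 2.12 ± 0.32, 2.75 ± 0.32 and 2.44 ± 0.32, with limma adjusted p between 7.99e-09 and 9.11e-07. These calls held under all alternatives run.

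Ly6d encodes a small GPI-anchored surface protein of the Ly6 family, known from keratinocytes and early B-lineage cells. In vehicle males it was 0.429 to 14.2 TPM (median 2.97) on LFD and 38.8 to 97.8 (median 56.0) on HFD. With the mixture male Ly6d was 1.73 to 3.57 TPM (median 2.40) on LFD and 19.9 to 217 (median 119.6) on HFD. Male groups did not overlap between diets, and the HFD males given the mixture spread over more than 10-fold. The lowest of these, at 19.9 TPM, was replicate 6, the library with most muscle transcripts. Mean TPM was 13.97 times and 50.3 times higher on HFD, with log2 changes of 3.96 ± 0.56 (SE, limma adjusted p = 4.13e-07) and 4.81 ± 0.56 (5.18e-09). LFD vehicle male 4 (14.2 TPM), a library with muscle transcripts, carried much of its group's mean, and without it the ratio in vehicle males was 26.3.

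Female Ly6d was already high on LFD. Vehicle females held 2.15 to 30.7 TPM (median 20.7) on LFD and 11.2 to 50.7 (median 34.6) on HFD, and females given the mixture 5.82 to 63.2 (median 16.5) and 11.8 to 103 (median 45.8). Both pairs of groups overlapped. The differences were 0.89 ± 0.56 (limma adjusted p = 0.256) and 1.21 ± 0.56 (0.129). The second passed the threshold without LFD mixture female 3 (1.57, adjusted p = 0.0484), the liver with 63.2 TPM and the third-highest muscle sum, and without the 3 libraries with most muscle transcripts (1.57, 0.0329). The summed TPM of 8 B-cell genes was 5.18 to 14.4 in LFD and 5.67 to 12.0 in HFD vehicle males, and 3.56 to 8.03 and 6.89 to 11.3 in males given the mixture. Its part in the Ly6d result was not tested.

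Counting members whose diet groups did not overlap gave 3 of 8 in vehicle males (Krt8, Krt23, Ly6d), beside 13.4% of all genes tested separated upward. With the mixture in males it gave 4, Krt18 being added (12.9%). In vehicle females and in females given the mixture it gave 2, Krt8 and Krt23 (6.11% and 5.91%).

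Cd24a, Krt19 and Sox9 rose on HFD in males given the mixture and did not pass the test in vehicle males, and the tests of that difference are given with the mixture below. Cd24a encodes a GPI-anchored glycoprotein of hepatic progenitors and of several blood cell types. Mixture males held 2.15 to 3.83 TPM (median 3.01) on LFD and 3.10 to 16.9 (median 8.57) on HFD. In vehicle males it was 2.32 to 6.87 (median 3.91) and 2.89 to 6.92 (median 4.08). Of the HFD males given the mixture, 5 of 6 were above every LFD liver, and replicate 2 (3.10 TPM) lay within the LFD range of its own exposure. The log2 change was 1.29 ± 0.24 (SE, limma adjusted p = 2.56e-05) with the mixture and 0.024 ± 0.24 with vehicle (0.961, 95% interval -0.45 to 0.50). In females it was 0.28 ± 0.24 (0.418) and 0.31 ± 0.24 (0.398). In the same comparison of males given the mixture, 3 of 5 erythroid genes, 2 of 5 B-cell genes and 2 of 2 neutrophil genes tested were called higher. Over all genes tested, 31.7% were called higher there. The sum over 8 erythroid genes was 344 to 618 TPM on LFD and 532 to 1119 on HFD there, and that over 8 neutrophil genes 0.621 to 5.09 and 2.60 to 14.3, and their part in the Cd24a result was not tested.

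Krt19, the type I keratin of bile ducts, was 1.05 to 3.51 TPM (median 2.80) on LFD and 3.41 to 7.04 (median 5.15) on HFD in males given the mixture. These groups touched only at their edges. The log2 change was 0.80 ± 0.24 (SE, limma adjusted p = 0.00685), and mean TPM was 1.99 times higher. In the other 3 diet comparisons the Krt19 difference lay between -0.076 and 0.19, with limma adjusted p of 0.62 or more. LFD vehicle male 4 was high at 9.47 TPM and is among the libraries with muscle transcripts.

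Sox9, the transcription factor of biliary and ductular cells, had called changes in both directions. Mixture males held 2.05 to 3.77 TPM (median 2.38) on LFD and 1.95 to 6.97 (median 4.16) on HFD. In vehicle females it was 1.99 to 4.90 (median 3.05) on LFD and 0.892 to 2.59 (median 1.72) on HFD. Both pairs of groups overlapped. The log2 change was 0.54 ± 0.19 (SE, limma adjusted p = 0.0185) in the former and -0.59 ± 0.19 (0.0143) in the latter. The rise was lost with TMM scaling (0.39, 0.0988), in a fit of those groups alone (0.0731) and without HFD mixture male 1 (0.46, 0.0596) or 5 (0.42, 0.0813). The fall was lost without LFD vehicle female 1 (-0.48, 0.0587) or HFD vehicle female 2 (-0.49, 0.0507). The differences in vehicle males and in females given the mixture were -0.053 ± 0.19 (0.874) and -0.20 ± 0.19 (0.498).

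Epcam, the adhesion molecule of cholangiocytes and progenitor cells, did not pass the test in any diet comparison. Mixture males held 2.42 to 7.23 TPM (median 6.27) on LFD and 4.28 to 12.5 (median 10.6) on HFD, a difference of 0.60 ± 0.26 (SE, limma adjusted p = 0.0588). HFD mixture male 6, the library with most muscle transcripts, was the lowest of its group at 4.28 TPM. Without it the difference was 0.79 and passed the threshold (adjusted p = 0.0133), as it did without LFD mixture male 1 (0.67, 0.0459). The Epcam differences elsewhere were 0.065 ± 0.26 in vehicle males, 0.29 ± 0.26 in vehicle females and 0.43 ± 0.26 in females given the mixture.

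Krt7, the type II keratin of bile ducts, was too low for the filter on low values (at least 1 TPM in at least 6 libraries). Its group means lay between 0.266 and 0.391 TPM in 7 groups and were 0.664 ± 0.284 (SD, n = 6) in HFD males given the mixture, where HFD mixture male 5 alone reached 1.23. When the filter was removed, the diet difference in males given the mixture was 0.38 ± 0.10 (SE, limma adjusted p = 0.00615). The other 3 diet differences of Krt7 lay between -0.055 and 0.039.

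**Figure D3:**
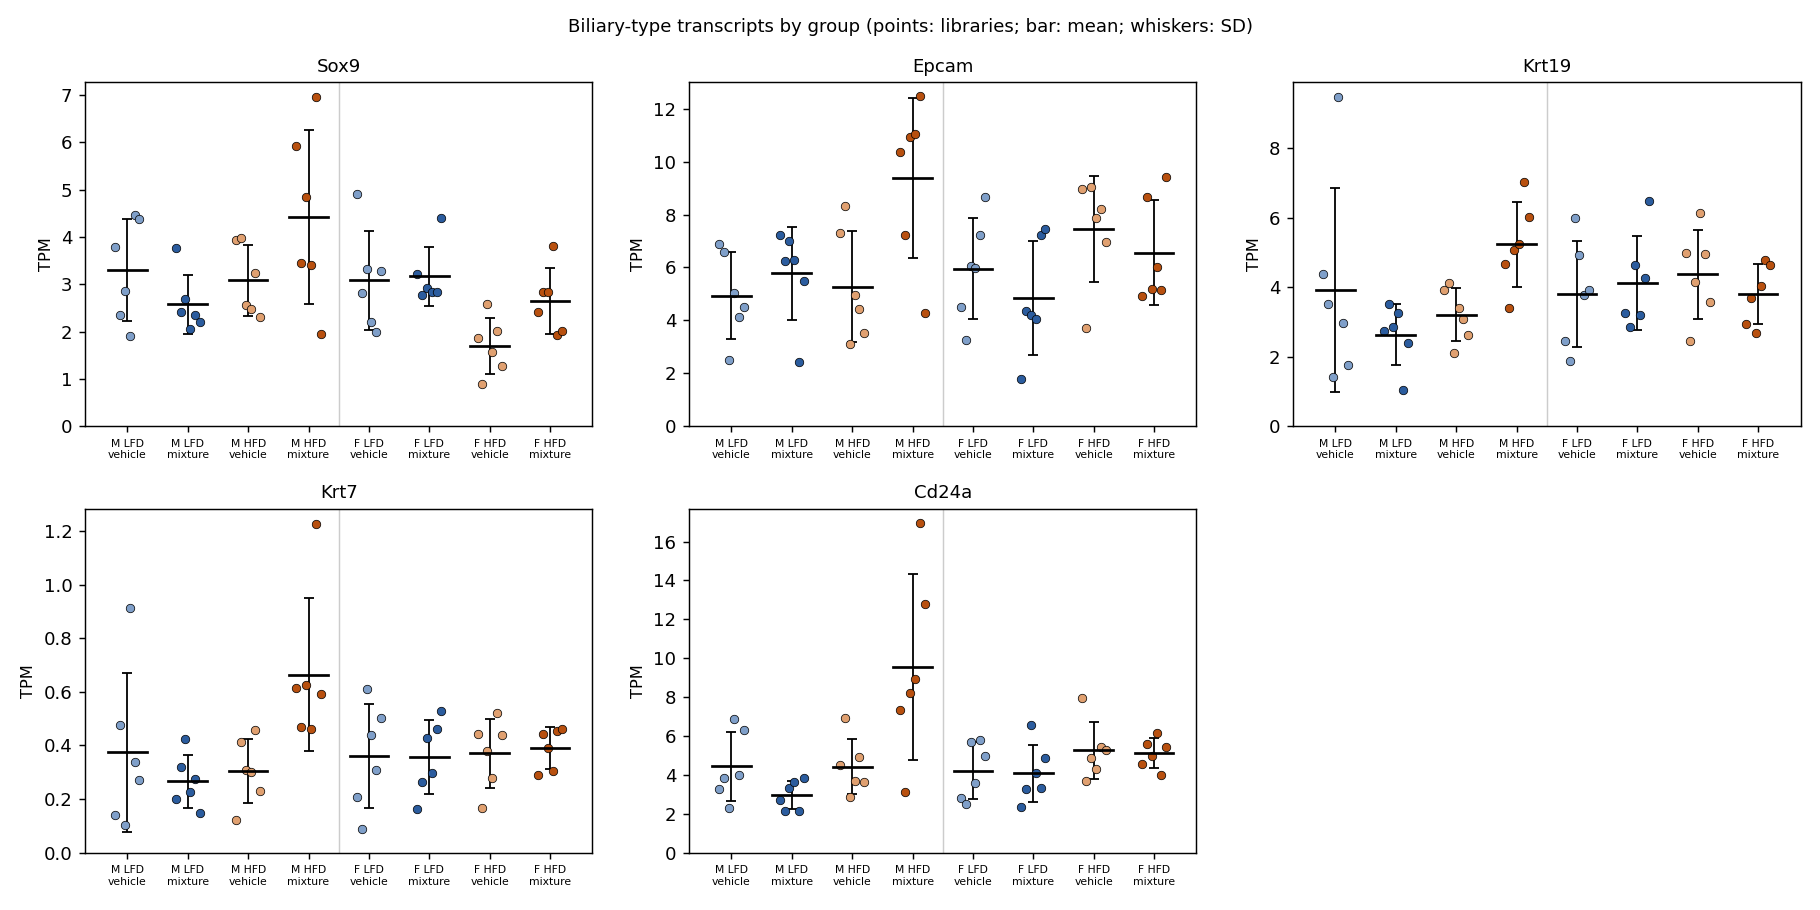
TPM of Sox9, Epcam, Krt19, Krt7 and Cd24a by group (points, 6 libraries; bar, mean; whiskers, SD; linear axes from 0). The highest group means of all 5 genes are those of HFD males given the mixture, and the groups overlap in part.

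HFD mixture male 5 had the highest Krt8 (727 TPM), Krt18 (492), Krt19 (7.04), Krt7 (1.23), Epcam (12.5), Cd24a (16.9), Sox9 (6.97) and Ly6d (217) of the 6. The summed TPM of 30 other cholangiocyte and ductular genes was 1061 in this liver and 505 to 737 in the other 5. The 10 stellate and fibroblast genes summed to 629 in it and to 314 to 478 in the others. Krt23 did not follow, with 11.5 TPM in this liver and its maximum, 28.8, in replicate 2. Over all 48 libraries, after subtracting group means, Pearson's r of log2(TPM + 1) was 0.72 between Krt8 and Krt18, 0.66 between Krt7 and Krt19, 0.60 between Epcam and Krt19, 0.55 between Krt19 and Cd24a and 0.16 between Krt23 and Ly6d. It was near 0 between Krt18 and Krt19 (0.0016), Sox9 and Krt19 (-0.020) and Sox9 and Krt7 (0.057), and lowest between Sox9 and Krt23 (-0.23). These describe libraries that share a tissue and a scaling.

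The mixture comparison asks how livers given the dioxin-like mixture differ from vehicle livers of the same sex and diet. Of the 8 members, 0 passed the limma test in any of the 4 comparisons, in which 0.0379% (LFD males), 0.0948% (HFD males), 0.0379% (LFD females) and 0.0126% (HFD females) of all genes tested were called. The share in HFD males was 0.297% without the 3 libraries with most muscle transcripts and 0.354% without the 5. At an unadjusted p under 0.05 the counts of members were 0, 5, 0 and 1 in that order, where 5.25%, 9.39%, 9.5% and 4.24% of all genes were that low. In the mean effect over the 4 comparisons 0 members passed (0.0948% of all genes called) and 0 had an unadjusted p under 0.05. The Krt8 mean effect was 0.025, with a 95% interval of -0.084 to 0.13, and that of Krt23 was 0.16 (-0.16 to 0.48).

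In HFD males all 8 tested members had positive differences from vehicle, and 0 passed the adjusted threshold. Over all genes 11 were called higher there (0.0695%), 37 without the 3 libraries with most muscle transcripts, and 1 in a fit of only these groups. The median log2 difference of the 8 members was 0.46, beside 0.031 for all genes tested. Cd24a differed by 0.86 ± 0.24 (SE, limma adjusted p = 0.178), Epcam by 0.72 ± 0.26 (0.36), Krt19 by 0.56 ± 0.24 (0.454), Krt18 by 0.29 ± 0.11 (0.423) and Krt8 by 0.24 ± 0.11 (0.48). For each of these at least 5 of 6 mixture livers were above the vehicle mean, and every pair of groups overlapped. Cd24a passed without HFD mixture male 2, the liver with 3.10 TPM (1.10, adjusted p = 0.00769). Of 12 libraries left out in turn, only that 1 changed the call. Over the 12 the Cd24a difference went down to 0.68 and its limma adjusted p up to 0.58. Ly6d means were 126 ± 84.0 TPM with the mixture and 59.3 ± 21.01 with vehicle (SD, n = 6), a log2 difference of 0.75 ± 0.56 (limma adjusted p = 0.722). In HFD females the Sox9 difference of 0.44 ± 0.19 (adjusted p = 1) was the member with an unadjusted p under 0.05, and all 6 mixture livers were above the vehicle mean.

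The differences of the mixture effect between diets and between sexes were tested as interactions. In males, 0 members differed between diets (0.00632% of all genes called), with 5 at an unadjusted p under 0.05, where 7.32% of all genes were that low. Without the 3 libraries with most muscle transcripts 0.0759% of all genes were called. Cd24a had the largest, 1.27 ± 0.33 (SE, limma adjusted p = 0.303), which passed without HFD mixture male 2 (1.52, 0.0241). Of 24 libraries left out in turn, only that 1 changed the call, with differences down to 1.09 and limma adjusted p up to 0.634. The same difference, which is also that of the diet effect between exposures, was 0.87 ± 0.34 for Krt19 (0.516) and 0.59 ± 0.26 for Sox9 (0.6). In females 0 members differed between diets (0.00632% called), and 0 had an unadjusted p under 0.05 (4.64% of all genes). Between sexes 0 members differed on LFD or on HFD, where 0% of all genes were called, with 0 and 3 members at an unadjusted p under 0.05 (4.25% and 4.68% of all genes).

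**Figure D4:**
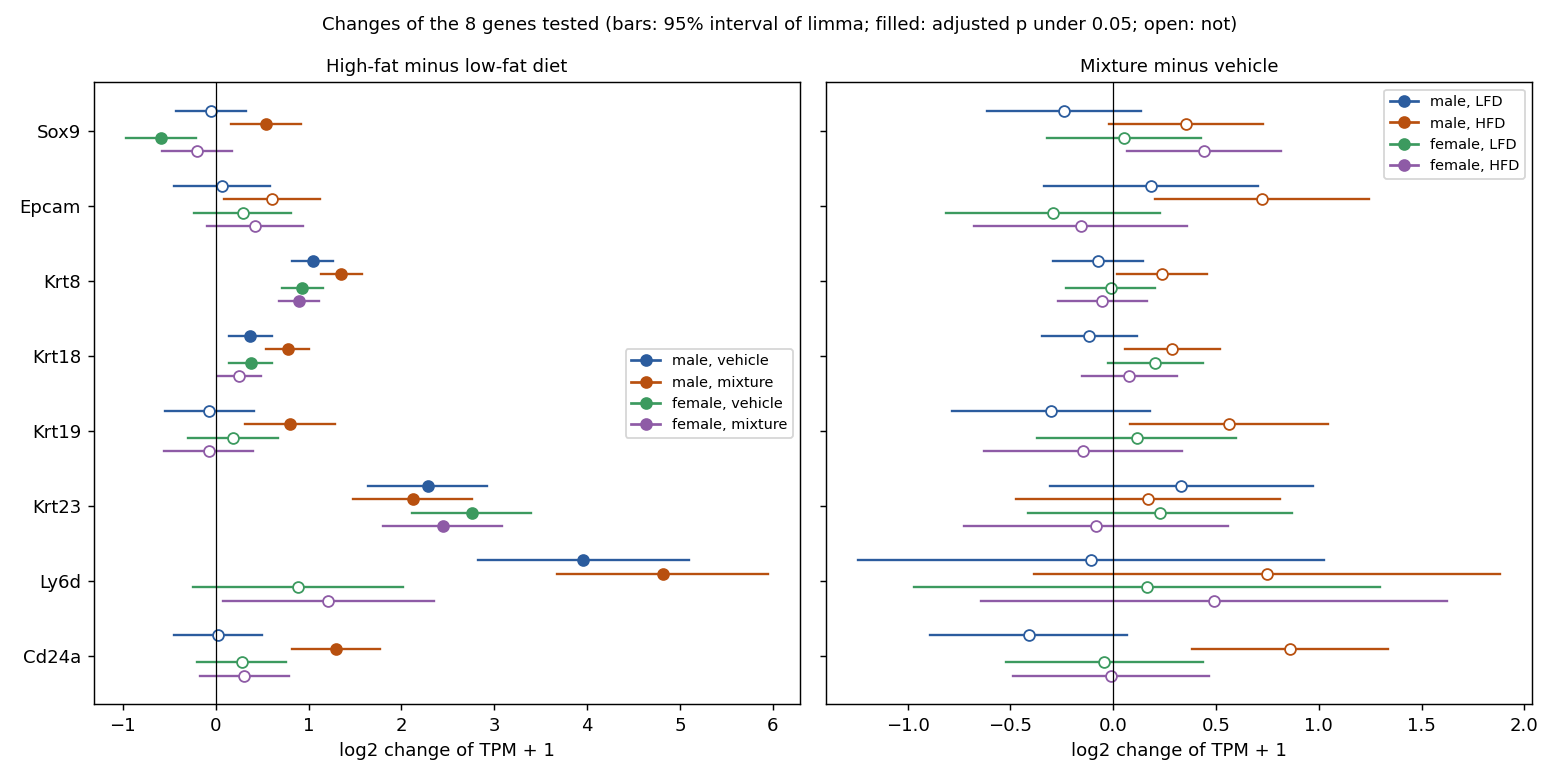
Log2 changes of TPM + 1 for the 8 tested members, HFD minus LFD on the left and mixture minus vehicle on the right, in each of 4 subsets. Bars are 95% intervals from limma, filled points have an adjusted p under 0.05 and open points do not. Filled points occur on the left panel only, with Krt8 and Krt23 filled in all 4 subsets.

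Whether the diet effect differs between sexes was tested as an interaction, with positive values where the effect was more positive in males. Ly6d differed among vehicle animals by 3.07 ± 0.80 (SE, limma adjusted p = 0.00528), the only member called there (18.2% of all genes called, 14.8% more positive and 3.47% more negative). Among animals given the mixture 5 of 8 members were called, all more positive in males, beside 17% of all genes (13.4% more positive, 3.65% more negative). These were Ly6d (3.60 ± 0.80, adjusted p = 0.00128), Cd24a (0.99 ± 0.33, 0.0357), Sox9 (0.74 ± 0.26, 0.0446), Krt18 (0.52 ± 0.16, 0.021) and Krt8 (0.46 ± 0.15, 0.0315). With TMM scaling 1 of the 5 remained called, Ly6d (3.45, 0.00186), and the share of calls over all genes that were positive moved from 78.5% to 46.4%, and among vehicle animals from 81% to 55%. The calls of Sox9, Krt8 and Cd24a were lost without the filter on low values (adjusted p = 0.0936, 0.0659 and 0.0762) and when only the 4 groups involved were fitted (0.0542, 0.0714 and 0.0567). Leaving out each of the 24 libraries in turn ended the Sox9 call in 14 cases, that of Krt8 in 10 and that of Cd24a in 8, and those of Krt18 and Ly6d in 0, with highest limma adjusted p of 0.106, 0.0694, 0.0897, 0.0482 and 0.0037. Cd24a was also lost without the 3 libraries with most muscle transcripts (0.76, 0.127). Krt23 did not pass among vehicle or mixture animals (-0.47 ± 0.45, adjusted p = 0.527, and -0.32 ± 0.45, 0.669).

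Male and female vehicle livers were compared on each diet. On LFD males had more Krt8 (0.48 ± 0.11 SE, limma adjusted p = 0.000715) and Krt18 (0.59 ± 0.11, 0.000124) and less Ly6d (-2.16 ± 0.56, 0.00356), 3 members called beside 23.7% of all genes (6.61% higher, 17.1% lower). On HFD males had more Krt8 (0.59 ± 0.11, 0.000113), Krt18 (0.58 ± 0.11, 0.000384) and Sox9 (0.61 ± 0.19, 0.0255), beside 11.8% of all genes called (8.26% higher). On either diet the lowest male value of Krt8 and of Krt18 was above the highest female value, as for 2.75% and 4% of all genes. Male Ly6d on LFD was 0.223 times the female mean, and 0.119 times without LFD vehicle male 4, whereas on HFD it was not called (0.91 ± 0.56, adjusted p = 0.33). The Sox9 call was lost when low genes were kept (adjusted p = 0.0561), and without HFD vehicle male 1 (0.55, 0.0685) or 2 (0.55, 0.0696), or HFD vehicle female 2 (0.51, 0.0841) or 6 (0.56, 0.0592). With TMM scaling the share of calls over all genes that were higher in males moved from 27.9% to 48% on LFD and from 70.1% to 56.2% on HFD.

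Other genes of the same cells and structures were counted by list in the diet comparisons, beside the background shares above. Of 25 other cholangiocyte and ductular genes tested, 5 were higher and 4 lower in vehicle males, 13 and 2 in males given the mixture, 3 and 5 in vehicle females, and 6 and 2 in females given the mixture. Higher in males given the mixture were Spp1, which encodes the secreted protein osteopontin (1.92 ± 0.28, limma adjusted p = 6.89e-07), Tm4sf4 (0.88 ± 0.11, 9.66e-09) and the annexin gene Anxa4 (0.61 ± 0.086, 3.06e-07). These genes were also higher in vehicle males: Spp1 by 0.81 ± 0.28 (limma adjusted p = 0.0248), Tm4sf4 by 0.88 ± 0.11 (1.34e-08) and Anxa4 by 0.39 ± 0.086 (0.000421). Cdh1, which encodes E-cadherin of both hepatocytes and cholangiocytes, fell by 2.17 ± 0.29 on the log2 scale in vehicle males (adjusted p = 1.37e-07). Its median TPM on LFD and HFD was 23.3 and 10.5 in mixture males. In females it was 16.8 and 5.23 with vehicle, and 14.5 and 7.10 with the mixture. In vehicle females the stem cell surface gene Prom1 (0.93 ± 0.15, 6.33e-06) and the bile acid transporter Slc10a2 (1.24 ± 0.22, 2.71e-05) were higher and the water channel Aqp1 was lower (-0.76 ± 0.14, 5.6e-05). Slc10a2 was also higher in vehicle males (0.61 ± 0.22, limma adjusted p = 0.0286).

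Of 14 tested partners of keratin filaments (plakins, desmosome and other filament genes), 5 were higher and 1 lower in vehicle males, 6 and 1 in males given the mixture, 1 and 0 in vehicle females, and 2 and 1 in females given the mixture. Vim, the intermediate filament gene of mesenchymal cells, was among them in males (0.75 ± 0.17, limma adjusted p = 0.000622 with vehicle and 1.24 ± 0.17, 1.83e-07 with the mixture), as was the nuclear lamin gene Lmna (0.43 ± 0.083, 7.77e-05 and 0.51 ± 0.083, 3.2e-06). The desmosomal genes Pkp4 (0.37 ± 0.072, 7.13e-05) and Jup (0.30 ± 0.10, 0.0208) were higher in vehicle males and Dsc2 (0.50 ± 0.13, 0.00275) in vehicle females. Among other keratins only Krt10 and Krt20 were tested. Krt10 was higher on HFD in both male comparisons (0.40 ± 0.13, adjusted p = 0.0131, and 0.47 ± 0.13, 0.00267) and in vehicle females (0.41 ± 0.13, 0.0113), and Krt20 was not called in vehicle males (0.093 ± 0.30, 0.863).

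Notch signalling and the YAP/TAZ coactivators, which act through TEAD factors, are known to control biliary cell fate, with Sox9 among their targets. Of 14 Notch pathway genes tested, 1 was higher and 1 lower in vehicle males, 6 and 2 in males given the mixture, 0 and 5 in vehicle females, and 0 and 1 in females given the mixture. The ligand gene Jag1 was higher in vehicle males (0.34 ± 0.12, limma adjusted p = 0.0253) and Hes6 lower (-1.03 ± 0.12, 5.16e-09). Hey1 (0.67 ± 0.14, 0.000185) and the ligand gene Dll4 (0.62 ± 0.14, 0.000407) were higher in males given the mixture, and the receptor genes Notch1 (-0.43 ± 0.13, 0.00774) and Notch4 (-0.66 ± 0.13, 7.21e-05) were lower in vehicle females. Of 14 YAP/TEAD genes, 8 were higher and 0 lower in vehicle males, 10 and 0 in males given the mixture, 2 and 2 in vehicle females, and 2 and 1 in females given the mixture. Wwtr1, which encodes TAZ, was higher in all 4 comparisons, by 0.79 ± 0.11 (5.16e-07) in vehicle males and 0.46 ± 0.11 (0.0016) in vehicle females. Nt5e was higher in vehicle males (1.11 ± 0.18, 3.67e-06) and lower in vehicle females (-0.92 ± 0.18, 0.0001). Of 9 other Ly6 family genes tested, 3, 3, 1 and 1 were higher and 0, 0, 1 and 0 lower in the order of comparisons used above. Cd59a, which encodes a complement inhibitor, was higher in each (0.80 ± 0.076, 3.83e-11 in vehicle males), and Plaur, the urokinase receptor gene, in both comparisons of males (0.76 ± 0.15, 6.75e-05 with vehicle).

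**Figure D5:**
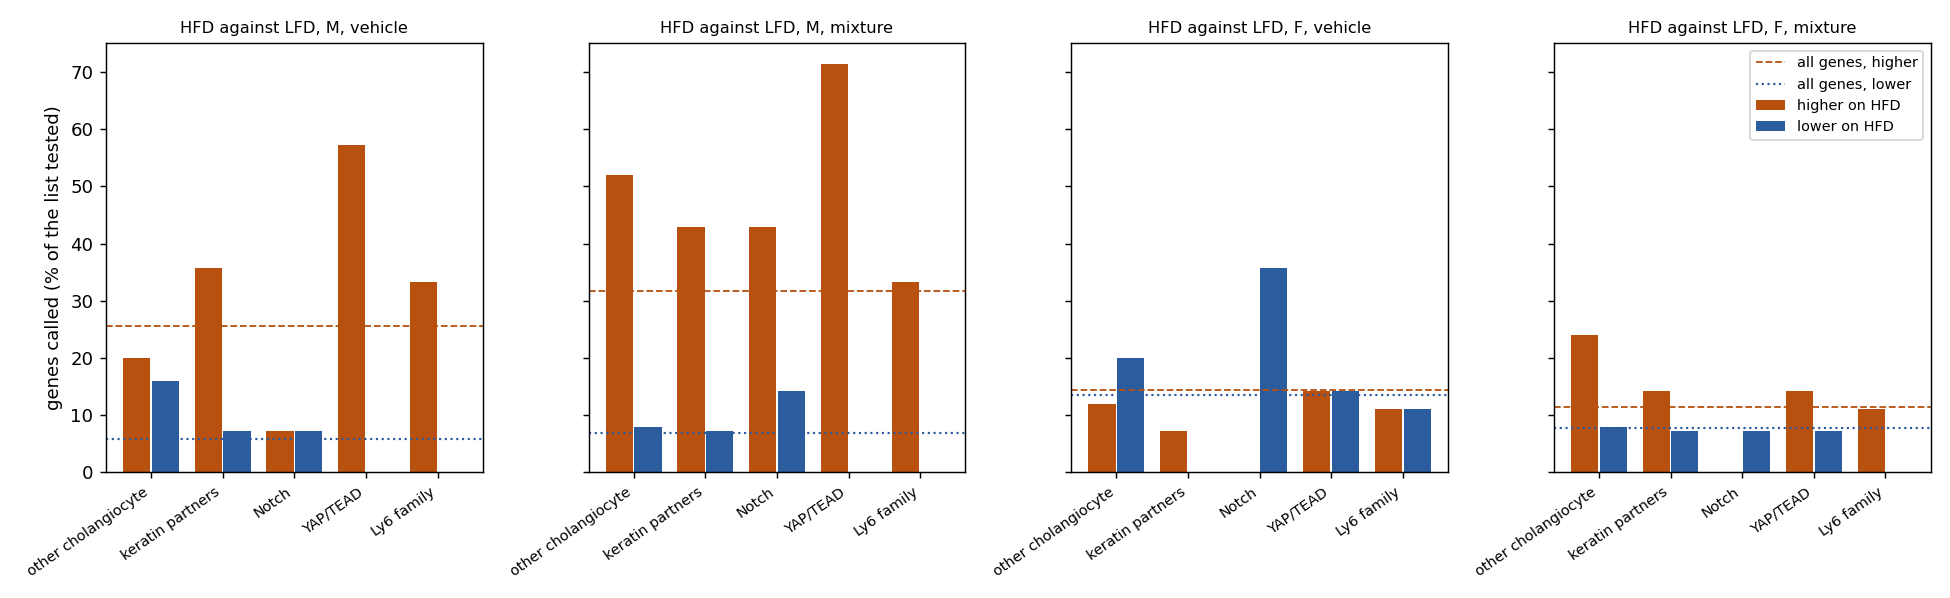
Share of the tested genes of 5 lists called higher or lower on HFD (bars, percent from 0) in the 4 diet comparisons, with dashed and dotted lines at the share of all genes called higher and lower. YAP/TEAD genes are called higher in 8 and 10 of 14 in the male panels and in 2 of 14 in each female panel.

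Markers of other liver cells moved with diet too, and their part in the results above was not tested. Of 10 stellate cell and fibroblast genes 8 were higher in vehicle males and 10 in males given the mixture, but 1 and 2 in vehicle and mixture females. Their summed TPM was 122 to 189.95 in LFD males, 266 to 339 in HFD vehicle males and 314 to 629 in HFD males given the mixture. Of 10 macrophage genes 5, 7, 1 and 3 were higher in vehicle males, mixture males, vehicle females and mixture females. The 15 hepatocyte genes included 9, 10, 10 and 9 that were lower. Over all genes tested, 25.6%, 31.7%, 14.4% and 11.5% were called higher in that order, and 5.82%, 6.92%, 13.5% and 7.74% lower. The summed TPM of 10 mesothelial genes was 6.30 to 38.4, highest in HFD mixture male 6. The pancreatic genes Prss2, Cpb1 and Ins2 were listed at 0 in 40, 41 and 46 of 48 libraries. Cela1, of the same list of 11 genes, was at 0 in 0 libraries, with group medians of 10.4 to 28.9 TPM.

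For each tested member the 3 genes with the most similar pattern were taken by Pearson's r of log2(TPM + 1) over the 48 libraries. For Krt8 these were Capns1 (0.96), Smpd3 (0.96) and Fez2 (0.94), and for Krt18 Dctn2 (0.91), Slc35f2 (0.91) and Pdgfa (0.90). Krt23 was most like Hadh (0.93), Gda (0.92) and Sema5b (0.91), and Ly6d most like Ccdc80 (0.88), Postn (0.88) and Ifi27l2b (0.88). The nearest genes were Cldn7 (0.79), St14 (0.78) and Krt20 (0.73) for Epcam, Ezr (0.74), Emp1 (0.66) and Cd24a (0.65) for Krt19, and Bicc1 (0.84), Tspan8 (0.83) and Emp1 (0.83) for Cd24a. Sox9 was most like Kctd3 (0.70), Kifc3 (0.70) and Elovl1 (0.69). The differences between the 8 groups are part of each r: after subtracting group means, r was 0.68 for Krt8 with Capns1, 0.57 for Krt23 with Hadh and 0.55 for Ly6d with Ccdc80.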

How the data were processed

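RNA selected by poly(A) from the livers of 48 mice was sequenced, per the labels. The tools named per the submitters' processing notes are STAR 2.5.2b, Trimmomatic 0.36, FastQC and DESeq2, with build GRCm38. Sources used here do not give their roles, the read counter, the annotation, the gene lengths or the use of strand. The authors deposited TPM for each library, without pooling, each library summing to 1000000.

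Values were tested as log2(TPM + 1), which understates changes of low genes, with limma 3.58.1 in R 4.3.3 (empirical Bayes with trend). A gene was tested if 6 or more libraries held 1 TPM or more. The model had 8 group means over 48 libraries with 40 residual degrees of freedom and gave 17 comparisons, each adjusted by Benjamini-Hochberg over 15820 genes at a threshold of 0.05. The procedure was tested on simulated data. TMM factors, trimming 30% of log ratios and 5% of levels, were computed by their published formula. It was applied to TPM of the genes tested and their sums, in place of read counts and read totals. The weights in that formula are meant for read counts, so with TPM they are not count variances. Loci came from GENCODE M21 and promoter windows from RefSeq (GRCm38.p6).

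All 9 genes were eligible to be named in every comparison. From other lists, the 4 genes of smallest p in vehicle males, and the 3 elsewhere where a list had calls, were eligible too. Of the cell type markers, Cftr, Prss2, Cpb1, Ins2 and Cela1 were named after their values were seen. The members and lists were chosen with earlier results of these data known. Alternatives were TMM scaling, no filter, a pseudocount of 0.1, fits of only the groups compared, the replicate number as a block, and leaving out the 3 libraries with most muscle transcripts. Leaving out 5 such libraries, or each library in turn, was added after seeing the data.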

Additional observations from a re-analysis of the deposited data

Results flagged for a closer look

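In 72 groups of 6 values (9 genes in 8 groups), 10 had a highest or lowest library set apart from the next. In these the gap, as a share of the group's range, exceeded Dixon's 95% critical value. For normally distributed values, chance gives this in about 5% of groups. The gaps were taken on TPM without a log, so the rate that chance gives here is not known. Sox9 was high in LFD mixture male 1 (3.77 TPM) and LFD mixture female 6 (4.40). Epcam was low in LFD mixture male 5 (2.42 TPM). Krt8 (409.5 TPM) and Krt23 (36.5) were both high in HFD mixture female 2. Krt23 was also high in LFD mixture male 2 (7.56 TPM) and LFD mixture female 4 (9.85). Krt7 was high in HFD mixture male 5 (1.23 TPM). Krt19 (9.47 TPM) and Ly6d (14.2) were both high in LFD vehicle male 4, which had a muscle sum of 797 TPM.

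The effect of HFD differed between the sexes, by limma's test of the interaction, for Ly6d in vehicle animals (3.07 on the log2 scale) and, among animals given the mixture, for Ly6d (3.60), Cd24a (0.99), Sox9 (0.74), Krt18 (0.52) and Krt8 (0.46), each more positive in males. Of these 5, the calls of Cd24a, Sox9, Krt18 and Krt8 were lost with TMM scaling, and those of Cd24a, Sox9 and Krt8 also without the filter on low values and in a fit of only the groups compared.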

How the results depend on the processing

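For 33 results on single members, the direction was kept under all alternatives run on all libraries and without the 3 or 5 libraries with most muscle transcripts. Calls were lost for 6 with TMM scaling, 4 without the filter, 1 with a pseudocount of 0.1, 4 in fits of only the groups compared and 1 without the 3 or the 5 libraries with muscle transcripts. Calls were gained for 1 in fits of only the groups compared, for 2 without the 3 libraries and for 3 without the 5. The cause was not tested.

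Of members with a sex difference of the diet effect among animals given the mixture, 5 were called, against 1 with TMM scaling, 2 without the filter and 3 in a fit of only the groups compared. Leaving out each library in turn gave 2 to 6. Leaving out each library gave 6 to 8 called members for diet in males given the mixture, 3 to 4 for vehicle females, 2 to 3 for females given the mixture, 2 to 3 for males against females on HFD, and 0 to 1 for the mixture in HFD males and for its difference between diets in males. Diet in females given the mixture called 4 members without the 5 libraries with muscle transcripts, against 2. Over all genes, the mixture called 15 in HFD males, against 1 in a fit of only those groups, 47 when the 3 muscle-rich libraries were left out and 56 when the 5 were. It called 6 in LFD males (3 in a fit of only those groups), 6 in LFD females (3 with TMM scaling), 2 in HFD females (4 without the 3 libraries) and 15 in the mean of the 4 comparisons (8 with TMM scaling). Its difference between diets in males called 1 gene, against 2 without the filter, 4 with the replicate block, 12 without the 3 libraries and 8 without the 5.

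The replicate numbers of the labels were checked for pairing. Same-numbered libraries of different groups had a mean correlation of deviations of 0.017 (25 of 168 pairs over 0.1), beside -0.0028 for other numbers. Of 48 libraries, 14 correlated best with their own number, and the count expected by chance was not computed. Pairing by the numbers in the library names, which differ from these, was not tested. With the replicate number as a block, 0 of the 33 results, called or not, changed and the counts of members called were the same. Depth is unknown, so it cannot be said which low values of Krt7 or Sox9 rest on few reads.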
